A study of Mus musculus with 10 samples.

Results

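Stretches of the mouse genome with few listed CpG positions, far from any stretch with many, were examined in leukaemias with and without a Dnmt3b knockin. A window was 1 kb of an autosome, and it was a member if it held under 20 listed positions, had no window of 60 or more listed positions within 10 kb, and had at least 3 positions read 10 or more times in every library of the model compared. A listed position is a cytosine of a CpG given in any of the 10 libraries, and the 2 strands of a CpG are separate positions. A window with few listed positions may thus hold few CpGs or be little read, since the CpGs of the genome sequence were not counted. Of the 1272584 autosomal windows listed, 1217671 held under 20 positions and 1085827 of these were far from a dense window. Coverage left 5341 members of 27129 covered windows in MLL-AF9 leukaemia and 17793 of 54108 in cMyc-Bcl2 leukaemia. In all 19014 of 56515 windows were members in at least one model, and 4120 were members in both. The rule used read coverage and position counts but no methylation level.

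The assay was reduced representation bisulfite sequencing of genomic DNA, in which MspI-cut fragments are treated so that cytosines without a methyl group read as thymine. The groups were Dnmt3b-knockin (3 libraries) and WT (3 libraries) in c-kit+ leukaemic spleen cells carrying the oncogene MLL-AF9, and Dnmt3b-knockin (2 libraries) and WT (2 libraries) in leukaemic spleen cells carrying cMyc and Bcl2. MLL-AF9 is an oncogenic fusion protein found in acute leukaemias, cMyc is a transcription factor, Bcl2 is an inhibitor of apoptosis, and the knockin is tetracycline-inducible. Each comparison asks whether these windows were methylated differently in knockin than in WT leukaemias. Oncogene and c-kit sorting cannot be told apart, the labels do not give whether any group received tetracycline, and knockin and WT are compared only within a model. Whether replicates are separate animals is not stated in the labels, so the p-values speak only of the spread between libraries, which may be technical.

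Dnmt3b is a de novo DNA methyltransferase, which adds methyl groups to CpGs that carry none. In mammalian cells the CpG-poor bulk of the genome is usually highly methylated, while CpG islands, often found at promoters, usually are not. CpG-poor sites of low or intermediate methylation away from islands are often distal regulatory elements such as enhancers, where bound factors go with reduced methylation. Genes, promoters, enhancers and the sequences of the windows were not analysed here, because the reference tables at hand are of another genome build.

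The libraries held 14446933 to 46762220 read calls at CpG positions and 569606 to 1148309 positions with at least 10 reads. A member window had a median of 13 listed positions in both models, of which a median of 4 were covered, over a median span of 71 bp in MLL-AF9 and 72 bp in cMyc-Bcl2. Hence 77.2% of members in MLL-AF9 and 67.9% in cMyc-Bcl2 rested on 3 or 4 positions. The median distance to the nearest dense window was 62 kb in MLL-AF9 and 80 kb in cMyc-Bcl2. A window's level is its methylated reads as a percent of all its reads at the covered positions. Median reads per window were 69, 95 and 115 in MLL-AF9 knockin libraries and 56, 82 and 53 in MLL-AF9 WT libraries. In cMyc-Bcl2 they were 131 and 113 in knockin and 104 and 137 in WT. Depth thus overlapped between genotypes but leaned higher in MLL-AF9 knockin, and whether this bears on the differences below was not tested. Of read calls on the mitochondrial genome, used to gauge incomplete conversion, those scored methylated came to 2.57, 3.20 and 2.01% in MLL-AF9 knockin and 1.82, 2.42 and 2.59% in MLL-AF9 WT. The same share was 0.926 and 1.15% in cMyc-Bcl2 knockin and 2.22 and 0.910% in cMyc-Bcl2 WT, so it overlapped between genotypes in both models.

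Most members were highly methylated in every library, with a smaller group at the low end. In MLL-AF9, windows over 80% made up 73.5, 74.0 and 71.7% of members in the knockin libraries and 64.7, 66.5 and 62.8% in the WT libraries. Windows under 20% made up 7.90, 8.95 and 9.38% in MLL-AF9 knockin and 11.6, 11.2 and 12.4% in MLL-AF9 WT. The knockin libraries thus had more windows at the high end and fewer at the low end than any WT library. In cMyc-Bcl2, windows over 80% made up 74.4 and 69.5% in knockin and 69.3 and 70.6% in WT, and windows under 20% made up 4.91 and 5.90% in knockin and 6.74 and 5.79% in WT. There the genotypes overlapped at both ends. By group mean, 61.3% of members reached 90% or more in MLL-AF9 knockin, against 48.1% in MLL-AF9 WT. In cMyc-Bcl2 these shares were 52.7% in knockin and 51.6% in WT.

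**Figure D1:**
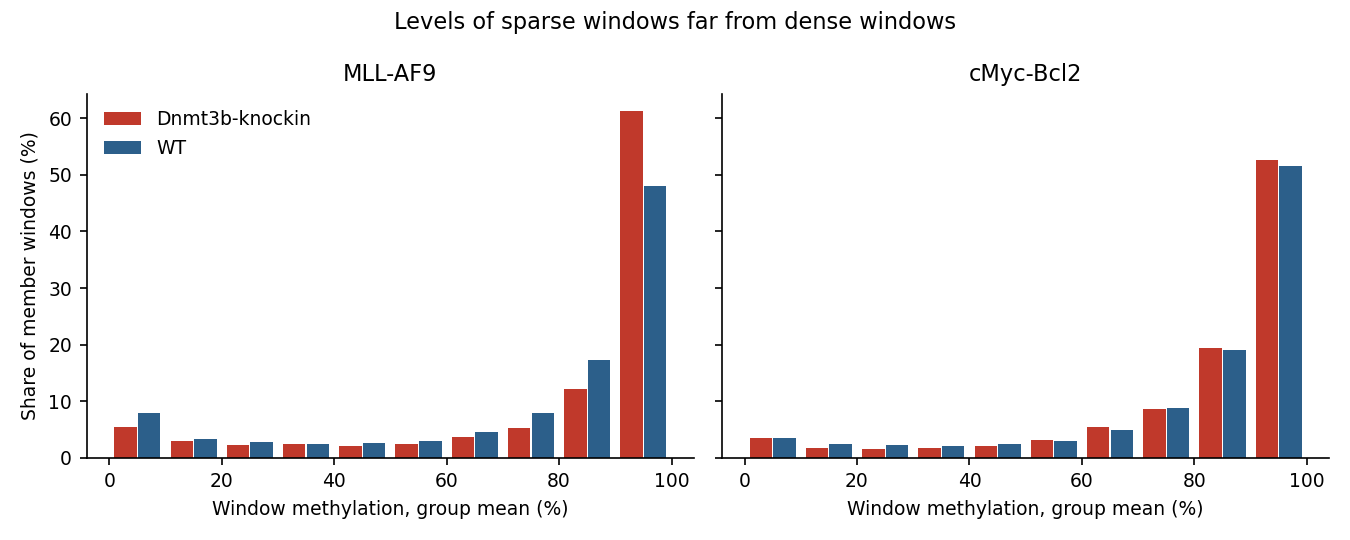
Share of member windows (%, y axis) by their group mean methylation in bins of 10 points (x axis), for Dnmt3b-knockin (red) and WT (blue) in MLL-AF9 (5341 windows) and cMyc-Bcl2 (17793 windows). The bin from 90 to 100% is the tallest in each group, and in MLL-AF9 it holds 61.3% of knockin windows and 48.1% of WT windows.

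Members were more methylated in knockin than in WT leukaemias of the MLL-AF9 model. The mean over members was 80.6, 80.2 and 78.7% in the 3 knockin libraries and 74.9, 75.5 and 73.8% in the 3 WT libraries, and the groups did not overlap. The means were 79.9 ± 1.01% in knockin and 74.7 ± 0.864% in WT (SD, n = 3 each), a difference of 5.13 points. An exact two-sided permutation test of the 6 libraries gave p = 0.1, the smallest p that 3 against 3 allows. The difference was 4.66 to 5.70 points when each library was left out in turn.

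In the cMyc-Bcl2 model the means of members overlapped. They were 82.1 and 79.9% in knockin and 79.5 and 80.4% in WT, so knockin replicate 1 was the highest library and knockin replicate 2 lay between the WT libraries. The means were 81.0 ± 1.59% in knockin and 79.9 ± 0.634% in WT (SD, n = 2 each), and the difference was 1.09 points (exact two-sided permutation p = 0.667, where 2 against 2 cannot go below 0.3333). It was -0.0353 points without knockin replicate 1, 0.644 points without WT replicate 1 and 2.22 points without knockin replicate 2.

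Over the 4120 windows that are members in both models, methylation rose in knockin leukaemias by 3.34 points on average of the models. An exact two-sided permutation test over all 10 libraries, with genotype permuted within oncogene, gave p = 0.0167, the smallest p it can give, and an adjusted p of 0.0222 by Benjamini-Hochberg over the 4 tests that used both models. Over these windows MLL-AF9 had 80.6, 80.2 and 78.7% in knockin and 75.0, 75.6 and 74.0% in WT, a difference of 4.91 points. For cMyc-Bcl2 the means were 79.0 and 76.8% in knockin and 75.7 and 76.5% in WT, a difference of 1.77 points, and here both knockin libraries lay above both WT libraries. The knockin difference was 3.14 points larger in MLL-AF9 than in cMyc-Bcl2 over these windows, with a permutation p of 0.05 over the 100 arrangements of oncogene labels within genotype, which is not under the threshold of 0.05. For that p to be exact, the models would have to be alike in all but the knockin.

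In WT leukaemias these windows started slightly higher in cMyc-Bcl2 than in MLL-AF9, by an amount that did not pass the test. Over the 4120 shared members, WT means were 75.68 and 76.5% for cMyc-Bcl2 against 75.0, 75.64 and 74.0% for MLL-AF9, so both cMyc-Bcl2 libraries lay above all 3 others, one of them by little. The difference was 1.2004 points (exact two-sided permutation p = 0.2, where 2 against 3 cannot go below 0.1), and 0.769 to 1.62 points on leaving out each library. Window by window, 3433 of 4120 (83.3%) fell in the same level class, under 20%, 20 to 80% or over 80%, in the WT leukaemias of both models. Of these, 333 were low in both, 629 were intermediate in both and 2471 were high in both. Windows that passed from the low class of one model to the high class of the other were few. There were 4 that were over 80% in cMyc-Bcl2 WT and under 20% in MLL-AF9 WT, and 2 the other way round.

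Split by the WT mean of their own model, members differed most between genotypes at intermediate level. These splits are a description with no test, because the WT libraries that set the class also enter the difference, which favours a gain at the low end and a loss at the high end. In MLL-AF9, the 601 windows with a WT mean under 20% averaged 17.6, 14.6 and 12.4% in knockin and 7.28, 7.69 and 6.31% in WT, a difference of 7.77 points. The 1249 windows of 20 to 80% averaged 71.2, 71.0 and 66.9% in knockin and 57.4, 59.3 and 55.0% in WT, a difference of 12.5 points. The 3491 windows over 80% averaged 94.8, 94.9 and 94.4% in knockin and 92.8, 93.0 and 92.2% in WT, a difference of 2.05 points. Knockin libraries lay above every WT library in each class. Of the 601 low windows 166 were at 20 to 80% in the knockin mean and 1 was over 80%, and of the 1249 intermediate windows 483 were over 80% and 12 were under 20%.

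In cMyc-Bcl2, the 1049 windows with a WT mean under 20% averaged 15.9 and 13.1% in knockin and 8.40 and 9.40% in WT, a difference of 5.62 points. The median difference of these low windows was 0.803 points, and 269 of them were at least 10 points higher in the knockin mean while 54 were as far lower, so the mean lay well above the median. Of these low windows 609 had a WT mean under 10% and could not fall by 10 points. The 4180 windows of 20 to 80% averaged 67.5 and 63.4% in knockin and 58.1 and 60.5% in WT, a difference of 6.15 points. The 12564 windows over 80% averaged 92.5 and 90.9% in knockin and 92.5 and 92.9% in WT, a difference of -0.968 points. In that high class knockin replicate 2 was the lowest library, and 775 windows were at least 10 points lower in the knockin mean while 284 were at least 10 points higher. A WT mean of 90% or more, found in 9179 of these windows, leaves at most 10 points for a rise. The 2 counts therefore do not compare like chances of a rise and a fall.

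Classing the shared members by WT levels in the other model keeps the class apart from the difference, so these values were tested. In MLL-AF9, windows that were under 20% in cMyc-Bcl2 WT (n = 391 windows) averaged 17.5, 12.9 and 12.4% in knockin and 9.47, 11.02 and 8.64% in WT, a difference of 4.53 points. Those of 20 to 80% (993 windows) averaged 68.7, 68.2 and 63.7% in knockin and 56.9, 58.8 and 55.2% in WT, a difference of 9.87 points. Those over 80% (2736 windows) averaged 93.9, 94.2 and 93.5% in knockin and 91.0, 91.0 and 90.2% in WT, a difference of 3.16 points. No library overlapped between genotypes in any of the 3 classes, and each exact permutation p was 0.1, the smallest possible. Knockin replicate 1 was the highest library of the low class, at 17.5% against 12.9 and 12.4% in the other knockin libraries. Without it the difference of that class was 2.92 points (exact permutation p = 0.2).

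In cMyc-Bcl2, windows under 20% in MLL-AF9 WT (466 windows) averaged 22.9 and 18.8% in knockin and 16.7 and 15.8% in WT, a difference of 4.57 points. Those of 20 to 80% (946 windows) averaged 69.1 and 65.7% in knockin and 60.7 and 63.7% in WT, a difference of 5.21 points. The difference of the low class was 2.53 points without knockin replicate 1 and 6.61 points without knockin replicate 2. Neither of these classes overlapped between genotypes, and each exact permutation p was 0.3333, the smallest possible. Those over 80% (2708 windows) averaged 92.1 and 90.6% in knockin and 91.1 and 91.4% in WT, which overlapped and differed by 0.0852 points (exact permutation p = 1). That small value is negative under several alternatives, -0.654 points without knockin replicate 1 among them.

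Taking both models in one exact permutation test, methylation rose by 4.55 points in the low class and by 7.54 points in the intermediate class (p = 0.0167 and adjusted p = 0.0222 for each). In the low class the exact permutation p was 0.05 when cMyc-Bcl2 WT replicate 2 was left out, with a rise of 4.62 points. In the high class the difference was 1.62 points, with an exact permutation p and adjusted p of 0.05, which is not under the threshold. Without cMyc-Bcl2 knockin replicate 2 it was 1.99 points, with an exact permutation p of 0.0167. The room left for a gain differs between the classes. On the scale of unmethylated reads the order of the classes was another one in MLL-AF9 but the same in cMyc-Bcl2. In MLL-AF9 the unmethylated share of the high class averaged 6.12% in knockin and 9.28% in WT, a ratio of 0.659, while the ratio was 0.770 in the intermediate class and 0.950 in the low class. In cMyc-Bcl2 the ratios were 0.990 in the high class, 0.862 in the intermediate class and 0.945 in the low class.

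**Figure D2:**
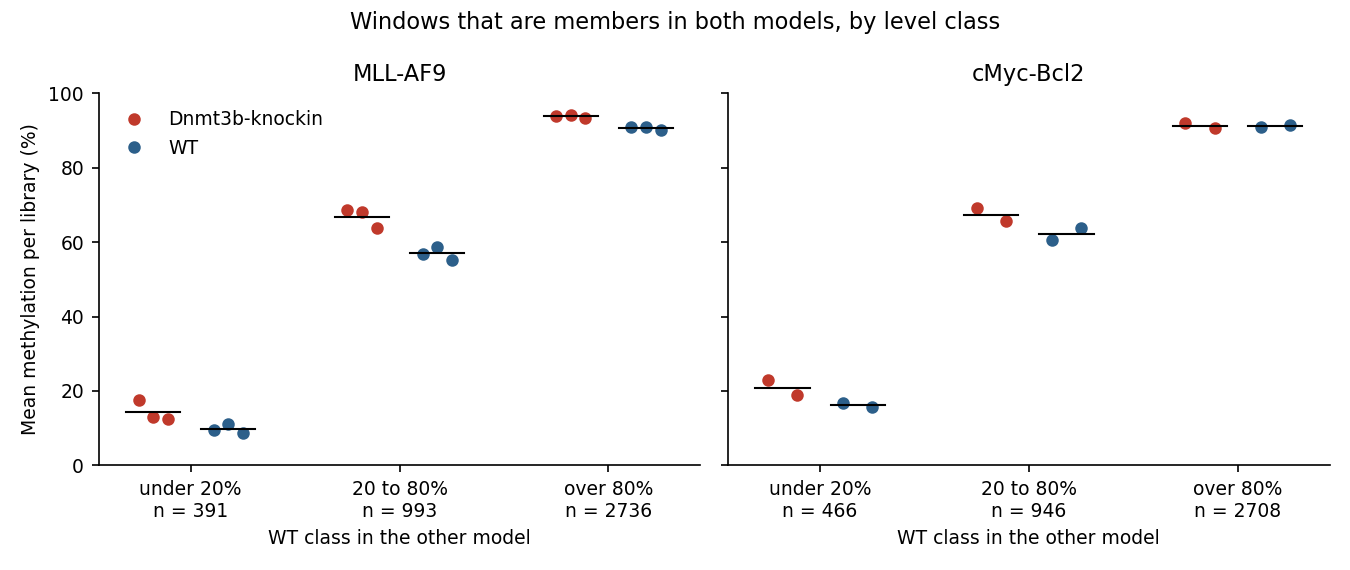
Mean methylation (%, y axis) of windows that are members in both models, by the WT level class of the same windows in the other model (x axis, with the number of windows). Each point is a library, Dnmt3b-knockin in red and WT in blue, and each bar is a group mean. In MLL-AF9 the knockin libraries lie above every WT library in the 3 classes, with the widest gap of means, 9.87 points, at 20 to 80%, while in cMyc-Bcl2 the genotypes overlap over 80%.

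In finer steps of 10 points of the other model's WT level, all MLL-AF9 knockin libraries lay above all MLL-AF9 WT libraries in 10 of 10 bins. The difference was 2.45 points in windows of 0 to 10%, 12.2 points at 30 to 40%, 11.8 points at 40 to 50%, 12.1 points at 50 to 60% and 2.27 points at 90 to 100%. In cMyc-Bcl2 the knockin libraries lay above every WT library in 8 of 10 bins. The difference there was 2.82 points at 0 to 10%, 9.42 points at 20 to 30%, 6.13 points at 50 to 60%, 2.71 points at 70 to 80% and 0.753 points at 80 to 90%. At 90 to 100% it was -0.153 points, with the knockin libraries on either side of the WT libraries. These bins were laid out after the class values were seen and carry no test.

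**Figure D3:**
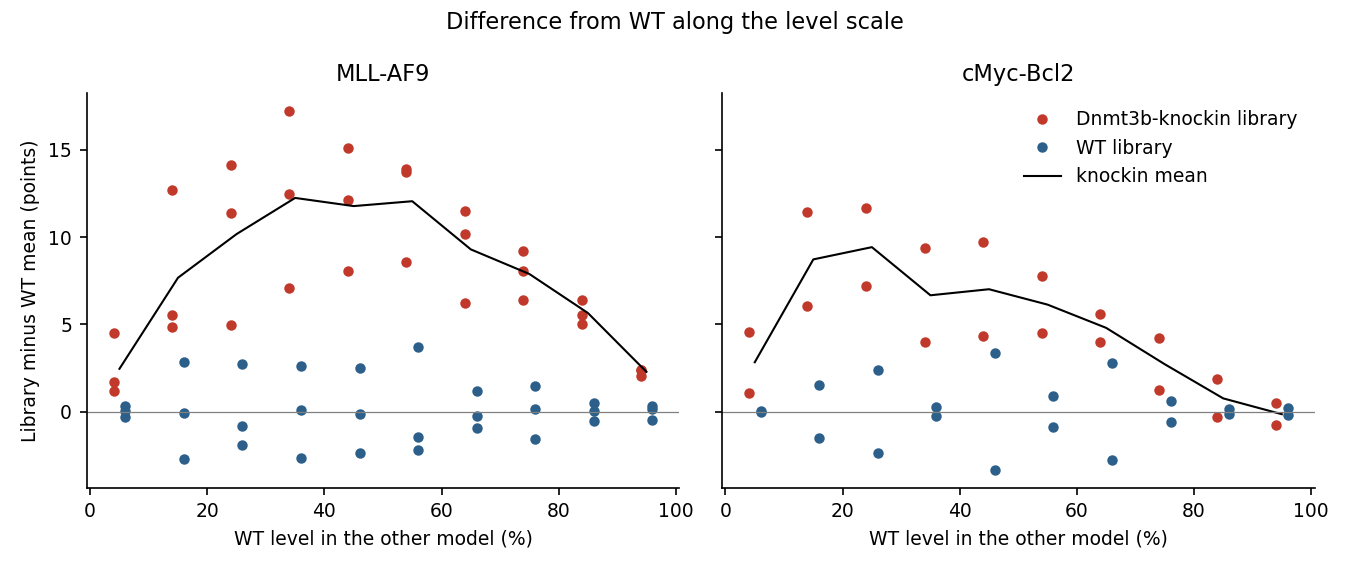
Difference of each library from the mean of its model's WT libraries (points, y axis) over shared member windows in bins of 10 points of the other model's WT level (x axis). Points are libraries, red for Dnmt3b-knockin and blue for WT, and the line is the knockin mean. In MLL-AF9 the line peaks at 12.2 points at 30 to 40% and is lowest at both ends, 2.45 points at 0 to 10% and 2.27 points at 90 to 100%. In cMyc-Bcl2 it peaks at 9.42 points at 20 to 30% and is lowest at the high end, with -0.153 points at 90 to 100%.

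Within the rule, the knockin difference was smaller the farther a window lay from a dense window. In MLL-AF9 it was 6.41 points at 11 to 20 kb (834 windows, 76.6% in knockin and 70.2% in WT), 5.74 points at 21 to 50 kb, 5.38 points at 51 to 100 kb and 3.92 points beyond 100 kb (1878 windows, 83.5% in knockin and 79.6% in WT). In cMyc-Bcl2 it was 2.60 points at 11 to 20 kb (2316 windows, 79.1% in knockin and 76.5% in WT), 1.90 points at 21 to 50 kb, 1.63 points at 51 to 100 kb and -0.0302 points beyond 100 kb (7784 windows, 83.2% in both genotypes). The nearest band differed from the farthest by 2.49 points for MLL-AF9 libraries and by 2.63 points for cMyc-Bcl2 libraries. The bands were compared after their values were seen, so these differences are a description with no test. At a minimum of 20 reads, which leaves 117 members in MLL-AF9, the farthest band had the larger difference in that model, with -1.84 points for nearest minus farthest.

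The WT level of members also increased with distance, so bands were set side by side within the classes set by the other model. In MLL-AF9 windows of the intermediate class the difference was 11.1 points at 11 to 20 kb and 9.03 points beyond 100 kb, and in the high class it was 3.73 and 2.34 points at these distances. In cMyc-Bcl2 it was 7.70 and 3.31 points in the intermediate class and 1.14 and -0.444 points in the high class. The low class gave 6.23 and 3.64 points for MLL-AF9, and for cMyc-Bcl2 4.83 and 2.99 points. The nearer band had the larger difference in each of these 6 pairs, but not every class fell from band to band. At 21 to 50 and 51 to 100 kb the intermediate class of MLL-AF9 differed by 9.70 and 10.3 points. At these distances the high class of MLL-AF9 differed by 3.85 and 3.52 points, and the low class of cMyc-Bcl2 by 4.68 and 5.65 points. The other classes fell from each band to the next. These bands, too, carry no test. Members with 3 to 9, 10 to 14 and 15 to 19 listed positions differed by 4.77, 5.30 and 5.17 points (MLL-AF9) and by 0.210, 1.11 and 1.74 points (cMyc-Bcl2).

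**Figure D4:**
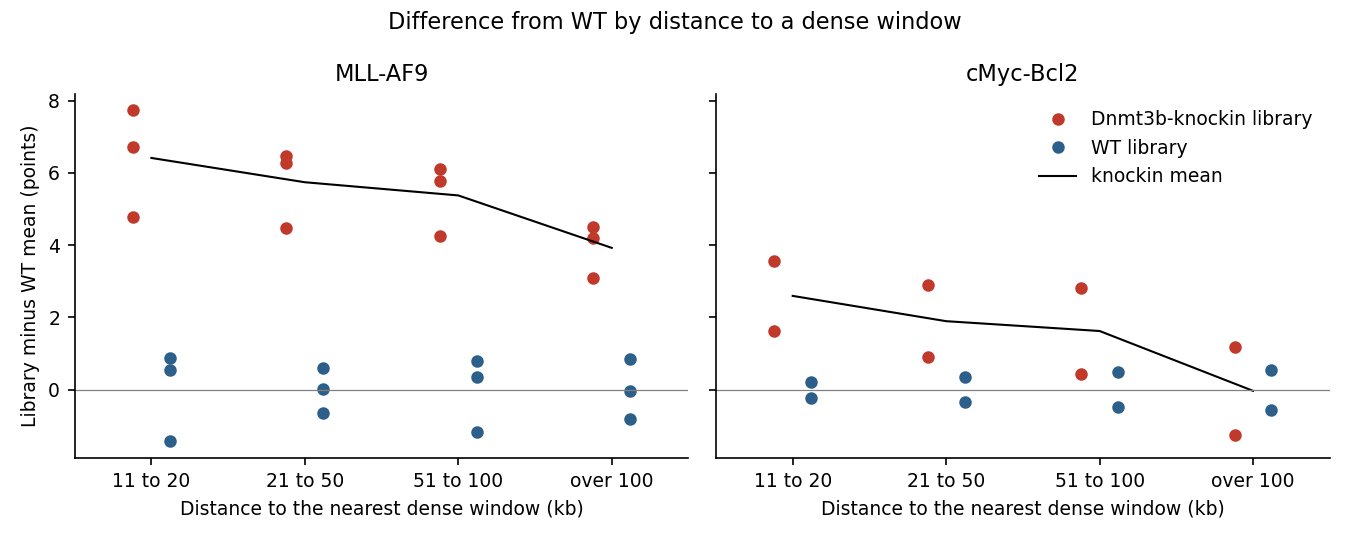
Difference of each library from the mean of its model's WT libraries (points, y axis) over member windows at 4 distances from the nearest window of 60 or more listed positions (x axis, kb). Points are libraries, red for Dnmt3b-knockin and blue for WT, and the line is the knockin mean. The line falls with distance, from 6.41 to 3.92 points in MLL-AF9 and from 2.60 to -0.0302 points in cMyc-Bcl2.

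Just inside and just outside the bounds of the rule the knockin differences lay close together. Levels at the distance bound lay farther apart in MLL-AF9 than in cMyc-Bcl2. Members with 18 or 19 listed positions differed by 5.23 points for MLL-AF9 and by 1.85 for cMyc-Bcl2, and windows with 20 or 21 differed by 5.28 and 2.05 points in these models. Members with a dense window at 11 or 12 kb differed by 6.57 points for MLL-AF9 and by 2.43 for cMyc-Bcl2, and windows with one at 9 or 10 kb differed by 6.95 and 2.76 points. Members at 11 or 12 kb averaged 79.96% in knockin and 73.4% in WT of MLL-AF9, against 73.8% in knockin and 66.9% in WT for windows at 9 or 10 kb. In cMyc-Bcl2 the same levels were 79.3% in knockin and 76.9% in WT for members, and 78.3% in knockin and 75.6% in WT for windows at 9 or 10 kb.

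Sparse windows that have a dense window within 10 kb started at a lower level than members, and their mean gain was larger by an amount that no test passed. Members averaged 79.9% in knockin and 74.7% in WT in MLL-AF9, while the 1337 near windows averaged 61.1% in knockin and 54.7% in WT, a difference 1.28 points larger than that of members (exact permutation p = 0.1, the smallest possible). With at least 5 covered positions this gap was 0.438 points (exact permutation p = 0.5), and with strands joined it was 0.621 points. In cMyc-Bcl2 members averaged 81.0% in knockin and 79.9% in WT, while the 3494 near windows averaged 65.0% in knockin and 61.8% in WT, a difference 2.11 points larger than that of members (exact permutation p = 0.3333, the smallest possible).

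Within the level classes set by the other model, the order of members and near windows depended on the class. In the low class members of MLL-AF9 differed by 4.53 points and near windows by 4.11 points (exact permutation p = 0.7), and in cMyc-Bcl2 the values were 4.57 and 3.58 points (exact permutation p = 1). In the intermediate class they were 9.87 and 12.02 points for MLL-AF9 (p = 0.1 by exact permutation) and 5.21 and 5.97 points for cMyc-Bcl2 (p = 0.667 by exact permutation). In the high class they were 3.16 and 4.39 points for MLL-AF9 (permutation p = 0.1) and 0.0852 and 0.850 points for cMyc-Bcl2 (permutation p = 0.3333).

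Against dense windows, the order of the means depended on the model. In MLL-AF9 members differed by 5.13 points and the 11685 dense windows, at 6.32% in knockin and 4.96% in WT, by 1.36 points (exact permutation p = 0.1 for the contrast). In cMyc-Bcl2 members differed by 1.09 points and the 13666 dense windows, at 10.2% in knockin and 6.56% in WT, by 3.68 points (exact permutation p = 0.3333 for the contrast). The cMyc-Bcl2 contrast of -2.59 points was -3.77 points without WT replicate 1 and -1.41 points without WT replicate 2 (exact permutation p = 0.667), and -1.06 points with strands joined.

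Within the classes set by the other model, the order of cMyc-Bcl2 was another one in the low class. The classes did not bring members and dense windows to the same own WT level. For the low class, own WT means were 16.3% (members) against 3.17% (dense) with cMyc-Bcl2, while MLL-AF9 gave 9.71% against 2.77%. For the intermediate class they were 62.2% against 28.4% with cMyc-Bcl2, while MLL-AF9 gave 57.0% against 33.2%. Among windows under 20% in WT of the other model, members differed by 4.57 points and dense windows by 2.54 points in cMyc-Bcl2 (exact permutation p = 0.3333), and for MLL-AF9 the values were 4.53 points for members and 1.0992 points for dense windows (p = 0.1 by exact permutation). In the intermediate class members differed by 5.21 points and dense windows by 19.9 points in cMyc-Bcl2 (exact permutation p = 0.3333), while in MLL-AF9 members differed by 9.87 points and dense windows by 7.23 points (exact permutation p = 0.3).

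The difference was spread over the chromosomes. In MLL-AF9 members were higher in knockin on 19 of 19 autosomes, with no overlap of libraries on any of the 19, and the difference ran from 3.82 points on chromosome 13 to 5.94 points on chromosome 11. In cMyc-Bcl2 the mean was higher in knockin on 19 of 19 autosomes but the libraries were free of overlap on only 2, chromosomes 4 and 11. The difference there ran from 0.318 points on chromosome 6 to 2.30 points on chromosome 11, which was the highest in both models. All chromosomes come from the same libraries, so these counts are no separate support for a difference.

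Windows of intermediate level were mostly mixed inside. Over the covered positions of a window, the WT level of intermediate members ranged by a median of 39.5 points (MLL-AF9) and 45.5 points (cMyc-Bcl2). In low members the median range was 9.10 (MLL-AF9) and 10 (cMyc-Bcl2) points, and in high members it was 10 and 11.4 points. Replicates differed most in the same windows. The median SD between replicates of intermediate members was 7.18 points in knockin and 10.98 points in WT in MLL-AF9, and 6.58 points in knockin and 9.06 points in WT in cMyc-Bcl2. Counting error alone gave a median of 5.59 points in WT of MLL-AF9 and 4.12 points in WT of cMyc-Bcl2 for these windows. The classes were set by the same WT libraries, and counting error is given for WT only. The SDs therefore do not show whether replicates of one genotype varied more. In high members the SD between WT replicates was 3.30 points for MLL-AF9 and 2.46 for cMyc-Bcl2, against counting errors of 2.83 and 2.09 points. Reads are not independent molecules, so these errors cover counting only.

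Window by window, higher members outnumbered lower ones in MLL-AF9. In 622 of 5341 members (11.6%) the lowest knockin library lay above the highest WT library and the means differed by at least 10 points, against 7.04% of all covered windows. In 18 members (0.337%) the highest knockin library lay below the lowest WT library by the same rule, against 0.155% of all covered windows, and such losses numbered 32 to 42 on leaving out each library, which loosens the rule. In cMyc-Bcl2 both directions were common. Without overlap, 1513 of 17793 members (8.50%) were higher, against 12.8% of all covered windows, and 884 (4.97%) were lower, against 2.87%. On leaving out each library there were 1964 to 2518 higher and 1102 to 2251 lower members. Without knockin replicate 1 the lower members, 2251, outnumbered the higher ones, 1964. Dense windows, which make up many of the covered windows, mostly lie near 0%, and whether that bears on the shares of losses was not tested. A window with a WT mean less than 10 points below full methylation could not be higher by this rule. The shares of higher windows therefore do not compare like chances either.

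Few members passed a test of their own. In the quasi-binomial fit of MLL-AF9, with limma moderation and Benjamini-Hochberg adjustment over 27129 windows, 2 members gained and 0 lost at least 10 points at an adjusted p under 0.05. Over all windows the shares called were 0.0479% gained and 0.00369% lost. At an unadjusted p under 0.05 there were 935 members (17.5%), 896 of them higher in knockin, against 14.1% of all windows, and limma on M-values called 0. Both calls were lost when any one of the 6 libraries was left out (0 gains).

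In the quasi-binomial fit of cMyc-Bcl2 0 of 17793 members were called in either direction, where 0.00185% of all windows were gained and 0% lost. At an unadjusted p under 0.05 there were 1392 members (7.82%), 917 of them higher in knockin, against 13.2% of all windows, and limma on M-values called 0 members. A single fit of the 4 groups, which shares the spread of the MLL-AF9 libraries, called 113 gains (2.94%) and 48 losses (1.25%) among the 3846 members it covered, against 5.68% gained and 0.519% lost among the 22907 windows tested. Windows close to full methylation in WT had no room for a gain of 10 points, so the gained shares do not compare like chances.

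The 2 gains called in MLL-AF9 were both windows with a low WT level in that model and a higher one in the other. The first lies on chromosome 2, with covered positions at chr2:69509044-69509121 (build mm9), 24 kb from a dense window. It had 71.6, 82.7 and 86.6% in knockin and 24.0, 9.52 and 10.5% in WT, a difference of 65.6 points over 152 to 292 reads a library (adjusted p = 0.0429 in the limma-moderated fit). In cMyc-Bcl2 the same window had 74.1 and 47.4% in knockin and 73.6 and 89.4% in WT, a difference of -20.7 points (adjusted p = 0.451 in that fit). Its WT mean was thus 81.5% in cMyc-Bcl2 against 14.7% in MLL-AF9, and the knockin means, 60.8% in cMyc-Bcl2 and 80.3% in MLL-AF9, lay closer together. The interaction did not pass (adjusted p = 0.0939 in the limma-moderated fit of both models).

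The second gain, at chr9:65377676-65377699, lies 50 kb from a dense window and rests on 3 positions. It had 71.7, 76.4 and 68.3% in knockin and 17.6, 13.1 and 14% in WT of MLL-AF9, a difference of 57.2 points over 50 to 99 reads (adjusted p = 0.0321 in the limma-moderated fit). In cMyc-Bcl2 it had 91.0 and 71.2% in knockin and 84.5 and 60.2% in WT, which overlapped.

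A fit of all 10 libraries with 1 knockin effect common to the models made most of the calls. Of 3846 members covered in all libraries, 112 gained (2.91%) and 4 lost (0.104%) at least 10 points at an adjusted p under 0.05, against 3.64% gained and 0.0262% lost among the 22907 windows tested. All 112 gains were higher in knockin in both models, and 79 of them had no overlap between genotypes in MLL-AF9 or in cMyc-Bcl2. The median gain of these windows was 17.9 points (MLL-AF9) and 22.7 points (cMyc-Bcl2). Windows were called on the same 10 libraries, so these counts and sizes follow in part from the selection and are no separate support. Over all tested members the median difference was 1.505 points, and over all tested windows it was 0.391 points. Of the gains, 24 had a WT mean under 20% (6.32% of members tested in that class), 78 one of 20 to 80% (8.57%) and 10 one over 80% (0.391%). They were found on 19 autosomes at a median distance of 31.5 kb. A window with a WT mean less than 10 points below full methylation could not be called a gain, which limits the share over 80% beforehand. Shares of gains therefore do not compare like chances between the classes, or between members and all tested windows. The number of gains depends on single libraries and on the method. It was 12 without cMyc-Bcl2 WT replicate 2, 48 without MLL-AF9 knockin replicate 2, 55 without MLL-AF9 knockin replicate 1, 59 without cMyc-Bcl2 knockin replicate 1 and 67 without MLL-AF9 WT replicate 3, and limma on M-values called 2. No member was called for a knockin effect that differs between the models, where 0.0175% of all tested windows were. At an unadjusted p under 0.05, 434 members (11.3%) had such an interaction, against 10.4% of all tested windows, and limma on M-values called 0.

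**Figure D5:**
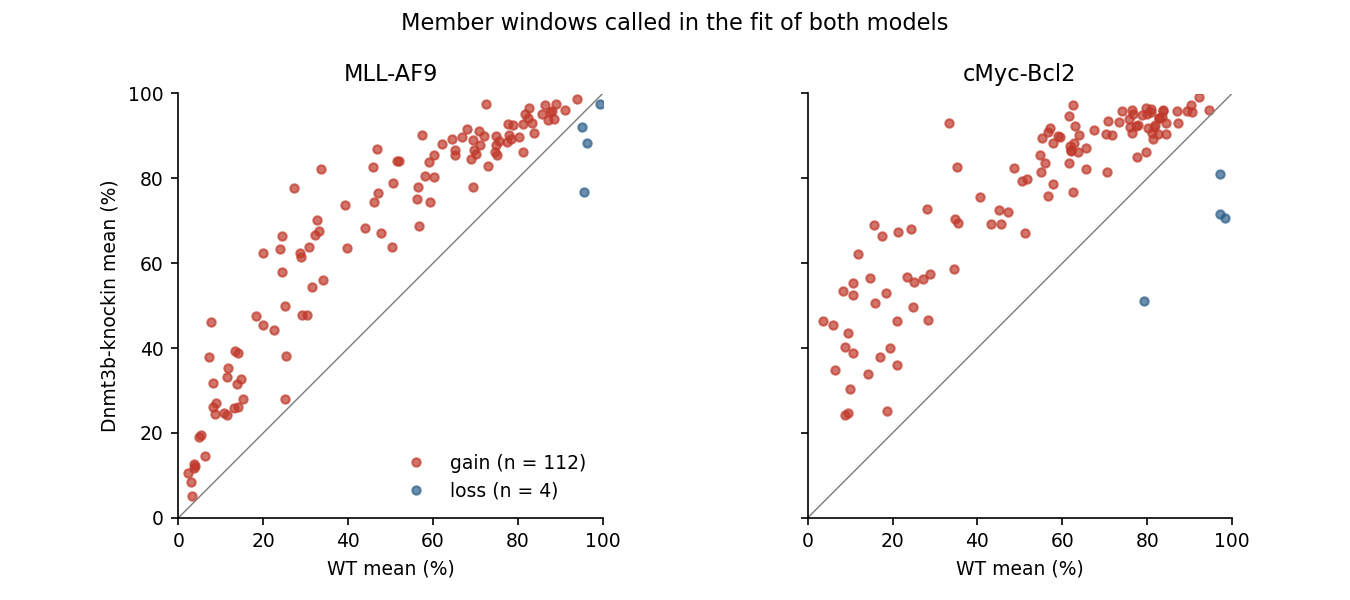
Dnmt3b-knockin mean (%, y axis) against WT mean (%, x axis) of the member windows called in the fit of all 10 libraries, 112 gains in red and 4 losses in blue, for each model. The line marks equal levels. The gains lie above it in both models and are spread from WT levels near 0% to over 80%.

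Among the largest gains of that fit, the window at chr7:80545189-80545257 was low in WT of both models. It had 57.6, 41.9 and 39.2% in knockin and 16.7, 3.92 and 2.63% in WT of MLL-AF9, and 64.7 and 42.4% in knockin and 3.64 and 13.1% in WT of cMyc-Bcl2. The mean gain was 41.8 points over 3 positions (adjusted p = 0.0121 in the limma-moderated fit), and the call was lost only without cMyc-Bcl2 WT replicate 2 (adjusted p = 0.0537). Knockin libraries lay above WT libraries throughout.

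The window on chromosome 1 at 133443489 to 133443550 in MLL-AF9 was intermediate in WT of that model and low in WT of the other. It had 95.6, 79.4 and 77.1% in knockin and 60.3, 55.4 and 38.7% in WT of MLL-AF9, and 61.0 and 75.4% in knockin and 13.6 and 19.2% in WT of cMyc-Bcl2. The levels rest on 5 positions in MLL-AF9 and on 7 in cMyc-Bcl2, the last at 133443939. The fit of both models used only positions covered in all 10 libraries. On those positions the mean gain was 40.7 points (adjusted p = 0.00797 in the limma-moderated fit), a call again lost without cMyc-Bcl2 WT replicate 2 (adjusted p = 0.0537).

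The other gains named by the rule varied more between libraries, and each call was lost when any of 8 of the 10 libraries was left out. At chr18:34323009-34323099 the levels were 94.0, 36.0 and 69.4% in knockin and 48.3, 3.47 and 21.8% in WT of MLL-AF9, which overlap, and 93.3 and 88.2% in knockin and 19.3 and 43.7% in WT of cMyc-Bcl2 (adjusted p = 0.0370 in the limma-moderated fit). At chr4:151734793-151734860 they were 51.6, 82.4 and 69.1% in knockin and 30.4, 59.6 and 9.43% in WT of MLL-AF9, which overlap, and 76.0 and 71.4% in knockin and 15.3 and 34.5% in WT of cMyc-Bcl2 (adjusted p = 0.0491 in the same fit).

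Losses called in the fit of both models came from highly methylated windows. The window at chr11:88181429-88181523, 164 kb from a dense window, had 75.0, 81.3 and 74.1% in knockin and 92.3, 96.8 and 97.7% in WT of MLL-AF9, and 85.6 and 76.7% in knockin and 98.6 and 95.7% in WT of cMyc-Bcl2. The mean loss was -17.4 points (adjusted p = 0.0126 in the limma-moderated fit), and every knockin library lay below its model's WT libraries. The call was lost without cMyc-Bcl2 WT replicate 2. At chr18:77669891-77669931 the levels were 100, 79.5 and 85.5% in knockin and 100, 89.2 and 100% in WT of MLL-AF9, which overlap, and 74.0 and 69.0% in knockin and 99.0 and 95.2% in WT of cMyc-Bcl2 (adjusted p = 0.0491 in the same fit). That call was lost without any of 8 libraries.

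The windows with the widest gaps between the genotypes were named without a test. In cMyc-Bcl2 the widest gain was at chr11:88757465-88757507, with 92.3 and 91.7% in knockin and 17.8 and 15.7% in WT, and the next at chr14:67821344-67821356, with 85.9 and 92.7% in knockin and 22.2 and 26.7% in WT. Losses of like size were present. The window at chr6:101141152-101141223 had 11.2 and 5.03% in knockin and 83.3 and 63.1% in WT, and that at chr16:89577790-89577892 had 19.5 and 36.7% in knockin and 85.3 and 92.9% in WT. In MLL-AF9 the widest gains were the called windows on chromosomes 2 and 9. Its widest loss was on chromosome 13, from position 74754769 to 74754808, with 9.62, 0.980 and 20.3% in knockin and 62.5, 70.7 and 38.9% in WT. In cMyc-Bcl2 that window had 40.0 and 1.13% in knockin and 1.42 and 10.5% in WT.

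Of the 333 windows low in WT of both models, 36 shared the highest number of listed positions, 19, and the rule named the first 2 of them in genome order. At chr1:83035005-83035109 the levels were 19.005, 24.7 and 34.6% in knockin and 14.02, 14.5 and 13.8% in WT of MLL-AF9, and 24.8 and 28.8% in knockin and 11.3 and 8.33% in WT of cMyc-Bcl2. These levels rest on 9 positions in MLL-AF9 and 12 in cMyc-Bcl2. On the positions covered in all 10 libraries, this window gained 13.7 points over both models (adjusted p = 0.0147 in the limma-moderated fit), a call lost without cMyc-Bcl2 WT replicate 2 (adjusted p = 0.0740). At chr1:133943075-133943129 the levels were 16.2, 12.7 and 5.84% in knockin and 4.40, 4.17 and 4.76% in WT of MLL-AF9, and 19.6 and 12.9% in knockin and 11.3 and 13.1% in WT of cMyc-Bcl2. Its mean difference of 5.59 points did not pass (adjusted p = 0.3996 in that fit), and the genotypes overlapped in cMyc-Bcl2.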

How the data were processed

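Genomic DNA was cut with MspI, size-selected, bisulfite converted and sequenced, per the labels' protocols. The submitters' processing notes name CASAVA, Trim Galore 0.2.2, Bismark 0.7.4, methylKit and build mm9; their settings are unknown here. In the deposited files, each line gives a pair of whole-number counts per position, taken as methylated and unmethylated reads, an order settled from mitochondrial positions, of which few read as methylated. Of 7972930 listed autosomal positions, 57.6% have a neighbour 1 bp away, so the 2 strands of a CpG are separate entries and the limits of the rule count positions, not CpGs.

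The members and lists were chosen with earlier results of these data known. Distance was measured from window start to window start. Means count each window once. They were compared by exact two-sided permutation of libraries, within oncogene where both models entered. Each window's summed reads entered a quasi-binomial logistic regression in R 4.3.3, with dispersions shrunk by limma 3.58.1 (never under 1) and p-values adjusted over all covered windows by Benjamini-Hochberg. The fits were also run on simulated counts in which only windows of lower level were changed, and only by gains. Losses and changes of highly methylated windows were not simulated, and no result of that run is used here. Other steps used numpy 2.4.6, pandas 2.3.3 and scipy 1.17.1 under Python 3.11.15.

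Windows were named by rule: up to 4 called gains and 2 called losses of each fit, the 2 gains and 2 losses of each model with the widest gap between genotypes, and the 2 windows low in WT of both models with the most listed positions. Alternatives were read minimums, other bounds of the rule, other weights and classes, other fits and leaving out each library; joining strands and using the same positions in all libraries were added after seeing the data. The sex chromosomes and Dnmt3b itself were not analysed here, so the knockin label has no check. Replicate numbers are names only.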

Additional observations from a re-analysis of the deposited data

How the results depend on the processing

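Over the alternatives run, the differences of MLL-AF9 members, of the intermediate class in both models and of the WT comparison kept their direction. Of these, only the intermediate class taken over both models could fall under the threshold, and its permutation p did so each time. The sizes did not always hold. At 20 reads the MLL-AF9 difference was 3.16 points over members and 0.928 points in the class over 80%. The cMyc-Bcl2 difference was 0.210 points over members and 2.62 points in the intermediate class with under 10 listed positions, and 0.481 points over members at 50 kb. The shared mean over both models was 2.77 points with under 10 listed positions (permutation p = 0.05), and passed elsewhere. The cMyc-Bcl2 difference over 80% was -0.232 at a minimum of 5 reads, -0.152 with under 10 listed positions, -0.338 with dense windows excluded within 50 kb and -0.153 with bounds at 10 and 90%. The MLL-AF9 difference between distance bands was -1.84 points at a minimum of 20 reads. Leaving out each library gave -0.0353 to 2.22 points for cMyc-Bcl2 members, -0.654 to 0.824 for their class over 80%, and over both models 3.53 to 5.57 for the class under 20% and 1.25 to 1.99 for that over 80%. Gains called in MLL-AF9 numbered 0 with a trended dispersion, with limma on M-values, with the 4 groups in one fit, at 20 reads, at 50 kb, with under 10 listed positions and without any library, and 1 with at least 5 covered positions or with strands joined. The fit of 4 groups called 113 gains and 48 losses in cMyc-Bcl2, 2.94 and 1.25% of the members tested, against 5.68 and 0.519% of all windows tested. In the fit of both models gains numbered 55 at 20 points or more, 57 with a trended dispersion, 2 with limma on M-values, 33 with at least 5 covered positions, 2 at 20 reads, 266 at 5 reads, 41 at 50 kb, 196 by the fullest file, 318 with strands joined, 22 with under 10 listed positions and 12 to 116 on leaving out each library. Losses there numbered 0 at 20 points or more, with M-values, with at least 5 covered positions, at 20 reads and with under 10 listed positions, 7 at 5 reads, 2 with dense windows from 40 positions and 0 to 8 on leaving out each library. Interaction gains numbered 0 to 4 on leaving out each library. Counts partly follow the number of members, which was 117 in MLL-AF9 at 20 reads and 15194 at 5 reads. Other causes were not tested. In the fit of both models, gains at 5 reads were 266 of 11547 members tested, against 1493 of all 40428 windows. With strands joined they were 318 of 8218 against 1109 of 27019, and at 20 points or more 55 of 3846 against 414 of 22907. The member share was the larger one with at least 5 covered positions, 33 of 838 against 528 of 15348. It was also larger at 20 reads, 2 of 102 against 31 of 4019. Windows close to full methylation in WT had no room for a called gain, so none of these shares compare like chances. Without a cMyc-Bcl2 library, 1 group has a lone library, assumed to vary like the others. The fits were not run on means of position levels. With 2 or 3 libraries a group and mostly 3 or 4 positions a window, single windows are weakly resolved. No paired analysis was possible because the replicate numbers were given in accession order.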

Other observations

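The 2 strands of a CpG, listed as neighbours 1 bp apart, read alike in most members. The median absolute difference between them was 4.33 to 6.67 points by library, and 0.882 to 5.39% of pairs differed by over 50 points. Where strands were joined and the limits applied to joined CpGs, members came to 10562 (MLL-AF9) and 28494 (cMyc-Bcl2). The knockin difference of their mean was then 5.05 points (MLL-AF9) and 1.77 points (cMyc-Bcl2), with exact permutation p-values of 0.1 and 0.3333, the smallest possible.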
